A study of Mus musculus with 16 samples.

Results

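A set of 9 genes of adhesion, signalling and the cell surface that are better known from epithelia and blood vessels than from myeloid cells was examined here, in blood progenitors that make little PU.1: Dsc2, Perp, Spint2, Shroom2, Epha7, Tinagl1, Sdc2, Ednra and Heph. These 9 genes, of 54347 in the deposited table, were matched by symbol. They had been chosen because earlier work on the same libraries showed large differences between genotypes or differences that depended on the cell type. Their genotype differences are therefore given as a description, without a test. RNA was measured in 16 libraries, from LSKs, the lineage-negative cells with Sca-1 and c-Kit among which stem cells and multipotent progenitors are found, and from GMPs (granulocyte-monocyte progenitors). Both were sorted from the bone marrow of UREΔ mice, labelled URE, and of WT mice, with 4 libraries in each of the 4 groups. UREΔ mice lack the upstream regulatory element, an enhancer of Spi1, the gene that encodes PU.1. The deletion is in the germline, so every cell of these animals carries it, and the mice were preleukemic. They and their WT littermates, on a C57BL/6 background, were 8 to 12 weeks old. The labels name no treatment.

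The label under which the genes were grouped, raised without PU.1, fitted the libraries only in part. In GMPs, all 4 UREΔ libraries lay above all 4 WT libraries for 8 of the 9 genes, and the genotypes overlapped for Epha7. In LSKs this was so for 4 genes (Dsc2, Perp, Sdc2 and Ednra), while Spint2 and Epha7 were lower in every UREΔ library and Shroom2, Tinagl1 and Heph overlapped. Over all genes tested, every UREΔ library was above every WT library for 7.85% in GMPs and 5.66% in LSKs, and below for 6.98% and 6.9%. By edgeR, 4.67% were called higher and 3.63% lower in UREΔ GMPs, and 2.38% higher and 3.76% lower in UREΔ LSKs. Since the genes were picked on these contrasts, nothing is read from their counts. Spi1 RNA was also lowered rather than lost. It stood at 1.13 to 4.44 CPM (counts scaled to library size by the TMM method) in UREΔ LSKs against 69.5 to 166 in WT LSKs, and at 15.6 to 28.6 CPM in UREΔ GMPs against 84.8 to 181 in WT GMPs.

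PU.1 is an ETS family transcription factor that myeloid and B cells need, and blood progenitors are not joined to their neighbours by the junctions that hold an epithelium together. Desmosomes are such junctions. In them, desmocollins and desmogleins bridge the gap between cells, and plakoglobin, plakophilins and desmoplakin tie them to keratin filaments. The other genes encode a protease inhibitor, an organiser of apical actin, an Eph receptor, a secreted matrix protein, a heparan sulfate proteoglycan, a receptor for the vasoconstrictor endothelin and a copper enzyme of iron export.

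Total counts per library ranged from 20028302 to 29128858. A log2 fold change below is positive where UREΔ is higher, with its standard error (SE) and 4 libraries per group. The sorted compartments carry the RNA of all their cells, so that fewer cells of a type and less RNA per cell cannot be told apart. The compartments matched their labels, with Ly6a (Sca-1) at 35.1 to 122 CPM in LSKs and 0.564 to 2.88 in GMPs, and Mpo (myeloperoxidase) far higher in GMPs. The libraries were not alike in sex. Transcripts of the Y chromosome were present in replicate 1 of UREΔ and in replicates 1 to 3 of WT, in both cell types, and near 0 in the others. Replicates 1 and 4 are therefore matched in sex between genotypes and replicates 2 and 3 are not. Replicates 1 and 4 were also the most alike pair in every group (chi-square per degree of freedom of 29.6 to 58.4, against 73.7 or more for any other pair), so that these subsets differ in more than sex. Shroom2 and Heph are X-linked, so their GMP values are also given after adjustment for Y-linked transcripts and within replicates 1 and 4.

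**Figure D1:**
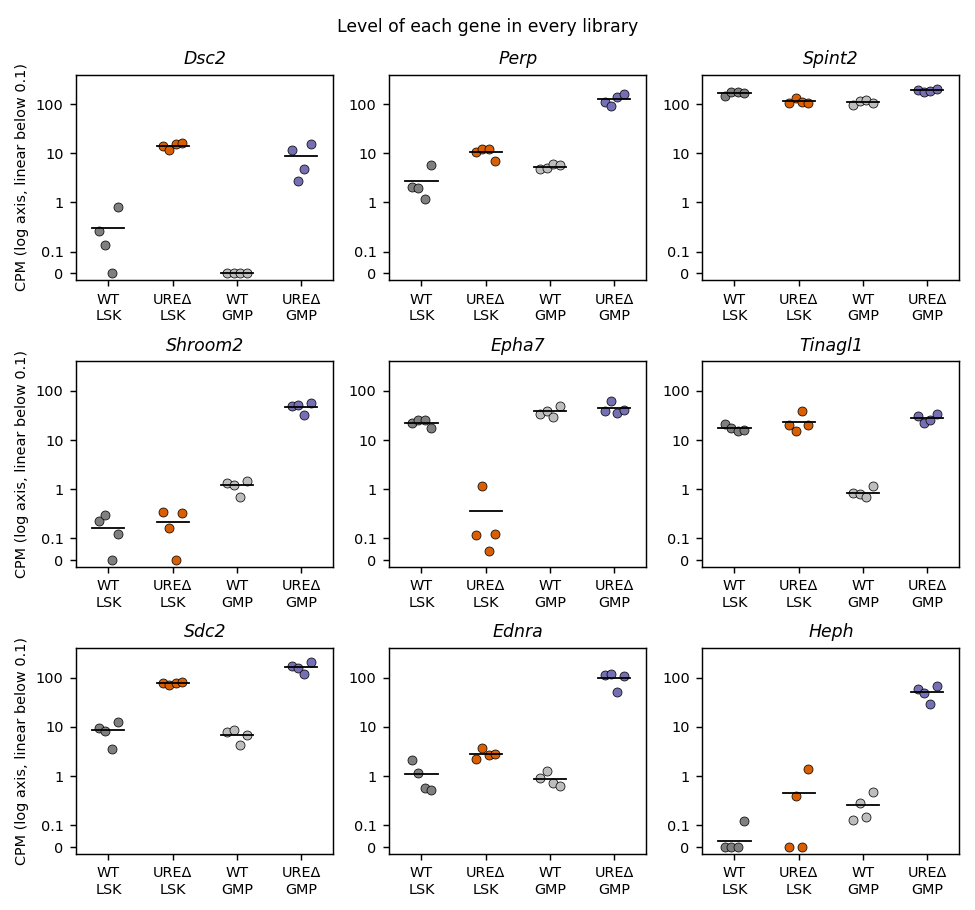
CPM of each of the 9 genes (logarithmic axis, linear below 0.1) in WT LSKs, UREΔ LSKs, WT GMPs and UREΔ GMPs; each point is 1 library, in the order of replicates 1 to 4, and the horizontal line is the mean of the 4. Epha7 is nearly absent from UREΔ LSKs alone, Tinagl1 is low in WT GMPs alone, and Shroom2 and Heph are high in UREΔ GMPs alone.

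The promoter windows of 3 genes are shown because their genotype differences were large in one cell type and small in the other. Each window runs from 250 bases before to 50 bases after the transcription start in RefSeq (GRCm38.p6), 5′ to 3′ on the strand of the gene. Capitals mark matches to GAGGAA, the letters at the core of PU.1 binding sites, or to TGNGGT, those of RUNX sites, searched on both strands. GAGGAA includes the GGAA that most ETS factors share, and neither motif lies within the other. The Epha7 window (chr4:28812881-28813180, plus strand) holds neither. The Tinagl1 window (chr4:130175073-130175372, minus strand) holds 1 match to the RUNX letters, and the Ednra window (chr8:77724403-77724702, minus strand) holds 1 match to the PU.1 letters. Of 32851 such windows, 28.3% hold GAGGAA and 45.8% hold TGNGGT, so that matches of this kind are frequent.
Epha7: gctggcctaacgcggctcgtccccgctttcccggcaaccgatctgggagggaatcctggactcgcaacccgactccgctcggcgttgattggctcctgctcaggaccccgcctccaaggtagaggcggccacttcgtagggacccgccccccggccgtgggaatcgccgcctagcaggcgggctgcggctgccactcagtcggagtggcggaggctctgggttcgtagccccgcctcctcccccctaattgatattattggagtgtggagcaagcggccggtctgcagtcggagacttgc
Tinagl1: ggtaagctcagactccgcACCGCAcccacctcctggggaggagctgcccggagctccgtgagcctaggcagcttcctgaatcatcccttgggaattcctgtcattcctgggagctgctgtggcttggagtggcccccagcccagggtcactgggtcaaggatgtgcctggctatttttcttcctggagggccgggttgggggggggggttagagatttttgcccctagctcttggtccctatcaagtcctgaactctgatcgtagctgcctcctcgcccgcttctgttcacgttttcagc
Ednra: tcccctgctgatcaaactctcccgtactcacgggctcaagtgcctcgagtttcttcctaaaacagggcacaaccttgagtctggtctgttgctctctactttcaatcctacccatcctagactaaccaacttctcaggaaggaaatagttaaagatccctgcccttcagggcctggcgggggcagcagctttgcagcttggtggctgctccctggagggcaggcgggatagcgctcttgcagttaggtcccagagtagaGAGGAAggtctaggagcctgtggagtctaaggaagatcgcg
The windows of Spint2 and Shroom2 held no match either. A match is only a run of letters, and binding was not measured in these libraries.

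Dsc2 encodes desmocollin 2, a cadherin of the desmosome (chromosome 18, 20030633 to 20059554, minus strand, GRCm38). Its level in WT LSKs was 0.26, 0.13, 0 and 0.81 CPM in replicates 1 to 4, and in UREΔ LSKs it was 13.8, 11.6, 15.6 and 16.2 CPM. No read was counted in any of the 4 WT GMP libraries, while the UREΔ GMP libraries held 11.8, 2.77, 4.82 and 15.3 CPM. The gene thus went from absent or nearly absent to present in every UREΔ library of both cell types. In LSKs the log2 fold change was 5.56 (SE 0.80). In GMPs the UREΔ level was at least 249-fold higher, taking 3 counts over the 4 WT libraries as the limit that a count of 0 allows. Within UREΔ GMPs, replicates 1 and 4 were above replicates 2 and 3. The LSK value rests in part on WT replicate 4, the highest WT library, without which it was 6.65. Replicates 1 and 4 alone gave 4.82, and replicates 2 and 3 alone 7.48.

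Perp encodes a tetraspan membrane protein that stratified epithelia need for stable desmosomes, and that p53 induces in apoptosis (chromosome 10, 18845020 to 18857073, plus strand). WT LSKs held 2.05, 1.98, 1.17 and 5.84 CPM and UREΔ LSKs 10.5, 12.5, 12.3 and 7.11 CPM. WT GMPs held 4.81, 5.03, 5.91 and 5.76 CPM and UREΔ GMPs 111, 90.6, 142 and 162 CPM. In LSKs the genotypes came close to each other in replicate 4, whereas in GMPs the lowest UREΔ library was far above the highest WT library. The log2 fold change was 1.93 (SE 0.48) in LSKs and 4.55 (SE 0.25) in GMPs. Within the sex-matched replicates 1 and 4 the LSK value was 1.14, within replicates 2 and 3 it was 2.95, and without WT replicate 4 it was 2.57.

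Of the other 14 desmosome genes listed, 5 could be tested in LSKs and 5 in GMPs with edgeR (quasi-likelihood F test, p adjusted over all genes by Benjamini-Hochberg). Dsg2, the desmoglein found in simple epithelia, passed in LSKs with a log2 fold change of 2.69 (SE 0.54, adjusted p = 0.0175) and in GMPs with 3.79 (SE 0.91, adjusted p = 0.0329). Its level was 5.22 CPM in UREΔ LSKs against 0.797 in WT LSKs, and 1.36 CPM in UREΔ GMPs against 0.0908 in WT GMPs. In GMPs, Dsp (desmoplakin) rose by 2.45 (SE 0.46, adjusted p = 0.0110), to a mean of 4.91 CPM, and Pkp3 (plakophilin 3) rose by 0.77 (SE 0.20, adjusted p = 0.0437), from 13.2 to 22.6 CPM. None of the tested genes fell by edgeR or DESeq2, while Jup was lower in LSKs at an unadjusted p under 0.05. Of the desmosomal cadherins of stratified epithelium, Dsc3, Dsg1a, Dsg1c, Dsg3 and Dsg4 were at 0 in all 16 libraries, and Dsc1 and Dsg1b had 7 and 2 reads in all. The median log2 fold change of the tested genes was 0.51 in LSKs and 0.77 in GMPs, beside 0.00 and 0.01 over all genes. With the replicate number as a block, Jup (plakoglobin) was in addition called lower in LSKs. The Pkp3 call was lost when any 1 of the 8 GMP libraries was left out, with log2 fold changes of 0.67 to 0.86 (adjusted p from 0.0628 to 0.141), after adjustment for Y-linked transcripts (0.78, adjusted p = 0.126) and without a low-count filter (0.77, adjusted p = 0.111). The Dsg2 value in LSKs was 3.30 without WT replicate 4, and its call was lost without WT replicate 2 (log2 fold change 2.47, adjusted p = 0.0566), and in GMPs without UREΔ replicate 4 or any 1 of WT replicates 1 to 4 (3.38 to 4.60, adjusted p from 0.0511 to 0.0908). Without UREΔ GMP replicate 1 or 2 it did not pass the low-count filter, so that the GMP call stood in 1 of 8 such fits, and it was also lost after the Y-linked adjustment (3.34, adjusted p = 0.128). Dsg2 shares 330 exonic bases, and Dsp 499, with a gene on the opposite strand, whose reads cannot be told apart in unstranded libraries.

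Spint2 encodes a Kunitz-type inhibitor of serine proteases such as matriptase, prostasin and the activators of hepatocyte growth factor (chromosome 7, 29256323 to 29281912, minus strand). It differed from the other genes in being abundant in every group, with genotype differences that were small and opposite in the cell types. WT LSKs held 147, 178, 180.2 and 167 CPM and UREΔ LSKs 108, 132, 109.7 and 106 CPM. WT GMPs held 97.5, 117, 123 and 103 CPM and UREΔ GMPs 197, 177, 182 and 206 CPM. The groups did not overlap in either cell type, with UREΔ below WT in LSKs and above it in GMPs. The log2 fold change was −0.59 (SE 0.15) in LSKs and 0.78 (SE 0.15) in GMPs.

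Of the other 11 genes of this protease axis, Spint1, the sister inhibitor of Spint2, fell in LSKs by 5.40 (SE 0.72, adjusted p = 0.00226, edgeR), from 6.86 to 0.160 CPM, and was near 0 in both groups of GMPs. It was the only edgeR call among 7 tested in LSKs, while DESeq2 called Spint1 and Hgfac lower and Hpn and Hgf higher. In GMPs 1 gene rose and 1 fell among 6 tested, and both encode receptors. Mst1r, the receptor for macrophage-stimulating protein, rose by 6.93 (SE 0.79, adjusted p = 0.00115), from 0.166 to 21.5 CPM, and the log2 fold change was 8.66 without WT GMP replicate 1, the highest of the low WT libraries at 0.520 CPM. Met, the receptor for hepatocyte growth factor, fell by 4.22 (SE 0.82, adjusted p = 0.0125), from 14.5 to 0.797 CPM. The UREΔ mean rests largely on replicate 2, at 2.51 CPM, without which the log2 fold change was −6.00. St14, which encodes matriptase, did not pass in LSKs (24.1 CPM in WT, 16 in UREΔ) or in GMPs (11.2 and 8.20 CPM). The median log2 fold change of the tested genes was −0.79 in LSKs and 0.51 in GMPs. With the replicate block, Hgf in LSKs and Mst1 in GMPs were also called higher.

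Shroom2 encodes an actin-binding protein that shapes epithelial and endothelial cells (chromosome X, 152609509 to 152769465, minus strand). In LSKs it was near 0 in both genotypes, at 0.22, 0.30, 0 and 0.12 CPM in WT and 0.35, 0.17, 0 and 0.33 CPM in UREΔ. WT GMPs held 1.34, 1.25, 0.68 and 1.5 CPM and UREΔ GMPs 49.3, 50.9, 32.5 and 56.5 CPM. The gene was thus seen at a sizeable level in UREΔ GMPs only. In GMPs the log2 fold change was 5.29 (SE 0.31), and it was 5.22 after adjustment for Y-linked transcripts and 5.20 within the sex-matched replicates 1 and 4. In LSKs too few reads were counted for a fit (19 in WT and 22 in UREΔ libraries), and their scaled ratio of 1.25 had a 95% interval of 0.644 to 2.44 from counting error alone.

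Among the other 8 genes of the Shroom family and of apical constriction, Tjp1 was the only one that passed. It encodes ZO-1, the scaffold of tight junctions. Tjp1 rose by 4.31 (SE 0.38, adjusted p = 0.000266, edgeR) in LSKs, from 1.12 to 22.5 CPM, and by 3.66 (SE 0.42, adjusted p = 0.00115) in GMPs, from 1.22 to 15.4 CPM. Both calls held without any 1 library. The number tested was 7 in LSKs and 6 in GMPs, with medians of 0.53 and −0.21. Shroom1, Shroom3 and Shroom4 did not pass, where tested, and the kinases Rock1 and Rock2, which Shroom proteins bind, were within 0.53 of no change on the log2 scale in both cell types.

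**Figure D2:**
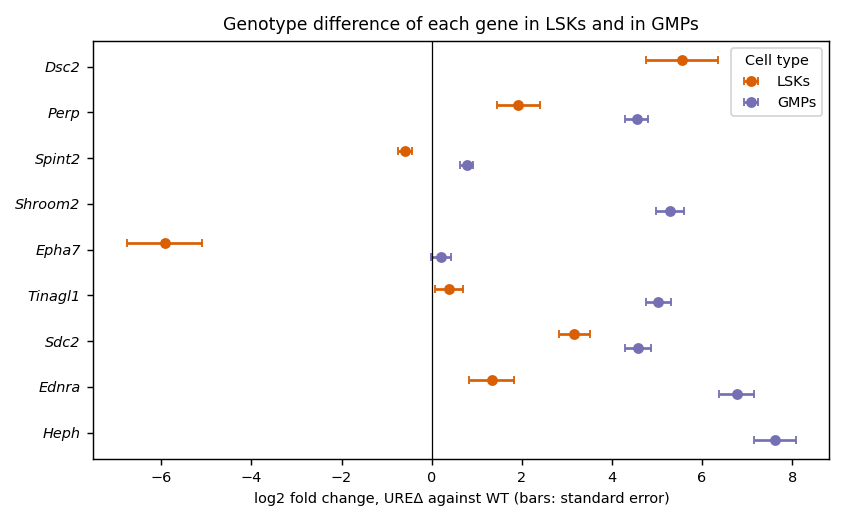
Log2 fold change of UREΔ against WT (horizontal axis) for each gene in LSKs and in GMPs; points are edgeR estimates from 4 libraries per group and bars are standard errors. Shroom2 and Heph in LSKs had too few reads to be fitted, and Dsc2 in GMPs is left out because all WT GMP libraries were at 0. Epha7 and Spint2 are the genes with a negative value in LSKs, at −5.93 and −0.59.

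Epha7 encodes a receptor tyrosine kinase that binds the membrane-anchored ephrin-A ligands of neighbouring cells (chromosome 4, 28813131 to 28967499, plus strand). It went against the label. WT LSKs held 21.9, 25.3, 26.0 and 17.4 CPM and UREΔ LSKs 0.12, 1.16, 0.04 and 0.13 CPM. WT GMPs held 34.5, 38.6, 30.0 and 50.1 CPM and UREΔ GMPs 39.7, 61.3, 35.6 and 40.1 CPM. The receptor was nearly absent from UREΔ LSKs, where replicate 2 was the highest library, and the genotypes overlapped in GMPs. The log2 fold change was −5.93 (SE 0.84) in LSKs, or −7.84 without UREΔ replicate 2 and −7.32 within replicates 1 and 4, and 0.20 (SE 0.22) in GMPs. The small GMP value turned to −0.013 without UREΔ replicate 2 and to −0.10 within replicates 1 and 4. Markers of monocytes and dendritic cells also differed between the genotypes. Of 9 tested, 5 fell in UREΔ LSKs (median log2 fold change −2.04) and 6 in UREΔ GMPs (median −2.36) by edgeR, and with the replicate block Cx3cr1 in GMPs fell too. The summed level of 10 such markers was 292 to 602 CPM in WT LSKs. It was 276 CPM in UREΔ LSK replicate 2 and 91.0 to 147 in the other UREΔ LSK libraries. In GMPs it was 954 to 1335 CPM in WT, 1489 CPM in UREΔ replicate 2, the library highest in Epha7, and 402 to 762 in the other UREΔ libraries. Ly6c2 made up most of it in UREΔ GMPs, with a mean of 631 CPM against 306 in WT GMPs. Siglech was at 0 in all UREΔ LSK libraries and no marker was at 0 throughout the other groups. Their part in the Epha7 values was not tested.

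Of the other 21 Eph receptors and ephrins, 9 could be tested in LSKs and 5 in GMPs. Ephb2, a receptor of the B class, fell by 4.55 (SE 0.46, adjusted p = 0.000617, edgeR) in LSKs, from 4.0 to 0.167 CPM, and by 3.95 (SE 0.63, adjusted p = 0.00523) in GMPs, from 1.87 to 0.118 CPM. Efna5, one of the ligands that EphA7 binds, rose by 4.03 (SE 0.75, adjusted p = 0.0116) in LSKs and by 4.30 (SE 0.69, adjusted p = 0.00523) in GMPs, but only to 1.44 and 1.27 CPM. Without WT replicate 3 the log2 fold change was 4.84 in LSKs and 5.13 in GMPs, and within replicates 2 and 3 the call was lost in both (2.96, adjusted p = 0.299, and 4.01, adjusted p = 0.237). Efna4 fell by 1.29 (SE 0.29, adjusted p = 0.0296) in LSKs, from 4.97 to 2.08 CPM. By edgeR the list thus held 1 rise and 2 falls in LSKs and 1 of each in GMPs, with medians of −0.21 and 0.92. DESeq2 gave the same counts in LSKs, and 1 rise and 3 falls in GMPs, the falls being those of Ephb2, Epha2 and Efna4 (edgeR −1.83, adjusted p = 0.0535). The Efna4 call was lost in 6 of the 8 fits without 1 library, those without UREΔ replicates 1, 2 or 4 or WT replicates 1, 2 or 3 (log2 fold change from −1.30 to −1.20, adjusted p from 0.0682 to 0.114), after the Y-linked adjustment (−1.12, adjusted p = 0.183) and without a low-count filter (−1.29, adjusted p = 0.0894). Efna4 also shares 168 exonic bases with an antisense gene.

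Tinagl1 encodes a secreted matricellular protein of basement membranes, related to the cathepsin B family but without protease activity (chromosome 4, 130164454 to 130175122, minus strand). WT LSKs held 21.5, 17.4, 15.6 and 16.4 CPM and UREΔ LSKs 19.9, 15.1, 38.9 and 20.6 CPM. WT GMPs held 0.82, 0.79, 0.68 and 1.14 CPM and UREΔ GMPs 30.6, 22.0, 25.4 and 34.6 CPM. The lowest group was WT GMPs, far below the rest, while UREΔ GMPs lay above all WT LSK libraries and overlapped UREΔ LSKs. The log2 fold change was 0.38 (SE 0.30) in LSKs, with UREΔ replicate 3 well above the other libraries, and 5.02 (SE 0.28) in GMPs. Its relative Tinag was at 0 in all libraries, and Ctsb (cathepsin B) had a log2 fold change of 0.02 in LSKs and −0.13 in GMPs, with adjusted p = 0.989 and 0.772 by edgeR.

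Sdc2 encodes syndecan 2, a transmembrane heparan sulfate proteoglycan of mesenchymal and endothelial cells that presents growth factors to their receptors (chromosome 15, 32920723 to 33034935, plus strand). WT LSKs held 9.68, 8.26, 3.51 and 12.8 CPM and UREΔ LSKs 78.6, 72.3, 78.7 and 82.6 CPM. WT GMPs held 7.75, 8.76, 4.2 and 6.74 CPM and UREΔ GMPs 174, 155, 118 and 209 CPM. Both cell types showed a clear gap between genotypes, and in both WT groups replicate 3 was the lowest library. The log2 fold change was 3.17 (SE 0.35) in LSKs and 4.57 (SE 0.29) in GMPs.

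The other syndecans and glypicans did not go with Sdc2. Of 6 tested in each cell type, none rose by edgeR or DESeq2, and none was higher at an unadjusted p under 0.05. Sdc1, the syndecan of epithelia and plasma cells, fell by 3.25 (SE 0.49, adjusted p = 0.00456, edgeR) in LSKs, from 83.0 to 8.89 CPM. In GMPs the glypicans Gpc1 and Gpc3, which are anchored by lipid, fell by 4.56 (SE 0.55, adjusted p = 0.00145) and by 1.70 (SE 0.40, adjusted p = 0.0321). Gpc1 went from 16.6 to 0.700 CPM and Gpc3 from 10.8 to 3.36 CPM. DESeq2 also called Gpc4 lower in GMPs, from 1.28 to 0.313 CPM, a gene that was not tested by edgeR. The medians were −0.99 in LSKs and −1.25 in GMPs. The Gpc3 call was lost in 5 of 8 fits without 1 library, those without UREΔ replicates 1 or 2 or WT replicates 1, 2 or 4 (−1.76 to −1.57, adjusted p from 0.0585 to 0.0965). Gpc1 shares 977 exonic bases with Ankmy1 on the opposite strand.

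Ednra encodes the endothelin receptor type A, the G protein-coupled receptor through which endothelin 1 contracts vascular smooth muscle (chromosome 8, 77663031 to 77724464, minus strand). WT LSKs held 2.15, 1.17, 0.59 and 0.52 CPM and UREΔ LSKs 2.22, 3.75, 2.74 and 2.80 CPM. WT GMPs held 0.91, 1.29, 0.73 and 0.62 CPM and UREΔ GMPs 115, 122, 50.5 and 107 CPM. In LSKs the genotypes were separated by a narrow margin, while in GMPs the lowest UREΔ library, replicate 3, was still far above all WT libraries. The log2 fold change was 1.34 (SE 0.50) in LSKs and 6.76 (SE 0.39) in GMPs. Ednra shares 91 exonic bases with a non-coding gene on the opposite strand.

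None of the other endothelin genes passed the test. Over 8 genes, 4 could be tested in each cell type, and edgeR called none in either direction, with 1 gene, Edn3, at an unadjusted p under 0.05 in each. DESeq2 called Edn3 in LSKs and none in GMPs. The ligand gene Edn1 was at 0 in all 16 libraries, Edn2 stayed below 1 CPM, and Edn3 went from 0.754 to 2.27 CPM in LSKs (log2 fold change 1.56, SE 0.44, adjusted p = 0.0801). Ednrb, the type B receptor, had 1.61 CPM in WT and 1.85 CPM in UREΔ GMPs. Ece1, which encodes the enzyme that activates endothelins, was present in all groups, with 30.3 CPM in GMPs of either genotype.

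Heph encodes hephaestin, a membrane-bound copper ferroxidase that oxidises iron as the exporter ferroportin releases it, best known from the intestinal epithelium (chromosome X, 96455359 to 96574485, plus strand). WT LSKs held 0, 0, 0 and 0.12 CPM and UREΔ LSKs 0, 0.40, 0 and 1.42 CPM. WT GMPs held 0.13, 0.29, 0.15 and 0.47 CPM and UREΔ GMPs 59.6, 49.7, 29.9 and 66.8 CPM. As with Shroom2, a sizeable level was reached in UREΔ GMPs only. In GMPs the log2 fold change was 7.61 (SE 0.47), and it was 7.52 after the same adjustment and 7.74 within the sex-matched replicates 1 and 4. In LSKs 3 reads in WT and 46 in UREΔ gave a scaled ratio of 16.5, with a 95% interval of 5.31 to 83.0 from counting error alone, and 2 of the 4 UREΔ LSK libraries had none.

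In the list of ferroxidases and iron export, 1 of 6 tested genes rose in GMPs and none in LSKs, where none had an unadjusted p under 0.05 and DESeq2 called none. DESeq2 called 2 higher in GMPs, Slc40a1 and Hephl1, a paralogue of Heph that went from 0.0108 to 0.600 CPM and was not tested by edgeR. The edgeR call was Slc40a1, which encodes ferroportin, the exporter that works with hephaestin. Slc40a1 had a log2 fold change of 1.56 (SE 0.36, adjusted p = 0.0263, edgeR), from 94.7 to 280.3 CPM. Its call was lost in 5 of 8 fits without 1 library, those without UREΔ replicates 1 or 4 or WT replicates 1, 2 or 4 (1.41 to 1.69, adjusted p from 0.0511 to 0.0794), and after the Y-linked adjustment (1.58, adjusted p = 0.0713). The ferritin genes Fth1 and Ftl1 did not pass in either cell type. The medians were −0.03 in LSKs and 0.48 in GMPs. With the replicate block, Slc11a2 in LSKs and Tfrc in GMPs, which both encode proteins of iron uptake, were also called higher.

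The difference between GMPs and LSKs within WT is a part of the difference between the genotype effects that helped to choose the genes, so it too is given as a description, without a test. Over all genes, 11.5% were called higher and 15.8% lower in WT GMPs by edgeR, and nothing is read from these shares about the 9. Dsc2 and Heph had too few reads for a fit. Tinagl1 had a log2 fold change of −4.37 (SE 0.27) in GMPs against LSKs and was lower in 4 of 4 replicates. Spint2 was at −0.62 (SE 0.14), and Sdc2 and Ednra were both at −0.33 (SE 0.39 and 0.51). Epha7 was at 0.75 (SE 0.22), Perp at 0.95 (SE 0.46) and Shroom2, from one low level to another, at 2.80 (SE 0.67). The Perp value was 1.62 without WT LSK replicate 4 and 1.87 within replicates 2 and 3. Its lowest value over the alternatives was 0.43, and 0.71 when 1 library was left out.

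In UREΔ mice the order was different. There, GMPs against LSKs had a log2 fold change of 7.72 (SE 0.63) for Shroom2, 6.82 (SE 0.84) for Epha7, 6.77 (SE 1.07) for Heph, 5.05 (SE 0.33) for Ednra and 3.53 (SE 0.27) for Perp. It was 1.03 (SE 0.19) for Sdc2, 0.70 (SE 0.14) for Spint2, 0.21 (SE 0.31) for Tinagl1 and −0.77 (SE 0.48) for Dsc2. Shroom2, Epha7, Heph, Ednra, Perp, Sdc2 and Spint2 were higher in UREΔ GMPs than in UREΔ LSKs in every library. The ranges of Tinagl1 and Dsc2 overlapped, but between libraries of the same number Dsc2 was lower in GMPs in 4 of 4, by 0.08 to 2.04, and Tinagl1 was higher in 3 of 4. The difference between the genotype effects, GMP minus LSK, was 6.09 (SE 0.81) for Epha7, 5.42 (SE 0.60) for Ednra, 4.96 (SE 0.93) for Shroom2, 4.62 (SE 0.41) for Tinagl1, 2.61 (SE 0.53) for Perp, 1.39 (SE 0.44) for Sdc2 and 1.35 (SE 0.18) for Spint2. It was 5.10 (SE 1.84) for Dsc2, with all WT GMP libraries at 0, and 3.82 (SE 2.39) for Heph, with 3 reads in WT LSKs, and both fitted values depend on these near-empty groups. That of Heph was 1.19 without WT LSK replicate 4 and 5.44 without UREΔ LSK replicate 4, and that of Dsc2 was 4.0 without WT LSK replicate 4. These differences were among the values that chose the genes. Over all genes, this difference was called more positive in GMPs for 0.866% and more negative for 0.351%. Without WT LSK replicate 4 the Perp value was 1.95, and without UREΔ LSK replicate 2 the Epha7 value was 8.02. The values also differed between subsets of replicates. Within replicates 2 and 3 that of Perp was 1.45, of Sdc2 0.72, of Dsc2 2.06, of Heph 2.05, of Ednra 4.53 and of Shroom2 6.18. Within replicates 1 and 4 that of Perp was 3.52, of Dsc2 6.46, of Ednra 6.28, of Epha7 7.20 and of Shroom2 4.28.

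**Figure D3:**
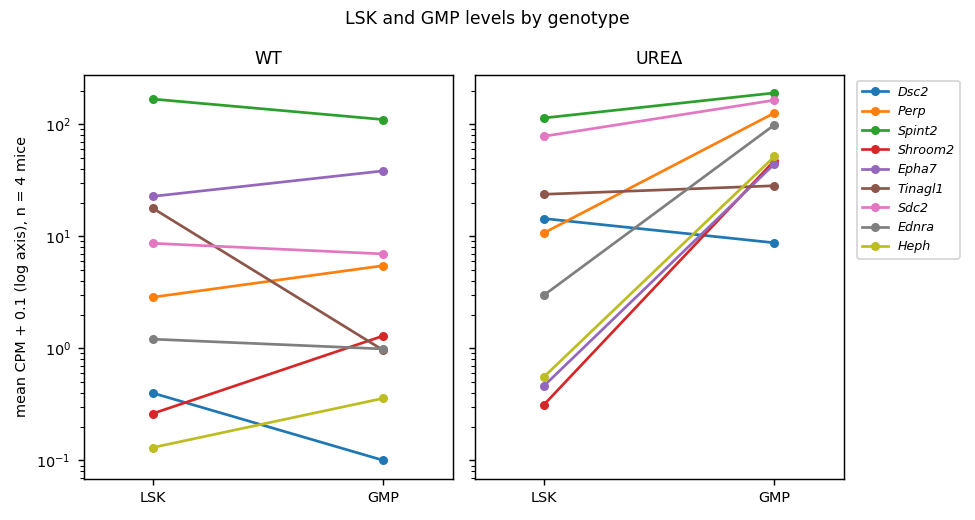
Mean CPM plus 0.1 (logarithmic axis, 4 mice per group) of each gene in LSKs and GMPs, for WT on the left and UREΔ on the right; each line joins the means of 1 gene. In WT, Tinagl1 has the steepest fall of the genes fitted (−4.37 on the log2 scale), and in UREΔ, Shroom2, Epha7, Heph, Ednra and Perp climb by 3.53 or more.

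To compare genes with each other, CPM were divided by the exonic length in kilobases. Spint2 had the highest level per kilobase in WT LSKs, at 36.9 ± 3.35 CPM per kb (SD, n = 4), in UREΔ LSKs, at 25 ± 2.69, and in WT GMPs, at 24.2 ± 2.58. In UREΔ LSKs its range overlapped with that of Sdc2, the next gene, at 22.1 ± 1.20 CPM per kb. In WT LSKs there followed Tinagl1, Sdc2, Epha7 and Perp, with each overlapping the next, and then Ednra, Dsc2, Shroom2 and Heph. In UREΔ GMPs the order was headed by Perp, at 64.7 ± 16.2 CPM per kb, Sdc2, at 46.5 ± 10.7, and Spint2, at 41.8 ± 2.93, again with overlap between neighbours. Ednra, at 18 ± 5.99, stood apart from the genes on either side. Heph, Tinagl1, Shroom2 and Epha7, from 6.72 to 4.47 CPM per kb, each overlapped the next, and Dsc2 was lowest, at 1.64 ± 1.11.

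The genes with the most similar profiles over the 16 libraries were found by Pearson correlation of log2 CPM among 9071 expressed genes. The libraries fall into 4 groups, so that r mostly follows the group means. It is given as a description. For Epha7 the closest was Ncf4 (r = 0.983), which encodes a cytosolic subunit of the phagocyte NADPH oxidase. Ncf4 was likewise low in UREΔ LSKs (5.48 CPM, against 57.0 in WT) and present in GMPs (106 CPM in WT and 75.2 in UREΔ). For Shroom2 they were Il17rb (r = 0.971) and Ifngr1 (r = 0.963), both cytokine receptors, and for Tinagl1 they were Mpp7 (r = 0.964) and Enpp5 (r = 0.949). For Sdc2 they were Slc7a7 (r = 0.971) and Rbpms2 (r = 0.957), and for Dsc2 Nedd4 (r = 0.949) and Schip1 (r = 0.946). Enpp1 was among the closest for Perp (r = 0.937), Ednra (r = 0.937) and Heph (r = 0.938), beside Fgl2 (r = 0.940), Itm2b (r = 0.931) and Igf2bp2 (r = 0.941) in turn. Spint2 had no neighbour as close, with Phyh (r = 0.840) and Sp100 (r = 0.837) highest. Among the genes themselves, the pairs Shroom2 and Heph (r = 0.935), Dsc2 and Sdc2 (r = 0.933), and Perp and Ednra (r = 0.924) were most alike, and Dsc2 and Epha7 (r = −0.595) least.

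Markers of the cells in which these genes are best known were measured in the same libraries. Of 12 epithelial markers, Epcam, Krt5, Krt14, Krt19, Cldn3 and Esrp1 were at 0 in all 4 UREΔ GMP libraries, and Krt19, Cldn3 and Esrp1 were at 0 in all 16. The summed level of the list was lower in UREΔ, at 9.51 to 20.2 CPM in UREΔ GMPs against 42.4 to 51.5 in WT GMPs, and at 50.4 to 91.6 CPM in UREΔ LSKs against 109 to 117 in WT LSKs. Most of it was Krt18, which fell by 2.24 in GMPs (SE 0.32, adjusted p = 0.00313, edgeR), from 37.3 to 7.87 CPM. Krt8 fell by 3.11 and Cdh1, E-cadherin, by 3.12 (adjusted p = 0.00981 and 0.0141), or by 3.73 without UREΔ GMP replicate 4 and by 2.44 without WT GMP replicate 1, the latter losing its call without UREΔ GMP replicate 4 (log2 fold change −3.04, adjusted p = 0.0547). The exception was Grhl2, a transcription factor of epithelial differentiation, which rose from 0.0778 to 5.18 CPM in GMPs (log2 fold change 6.07, adjusted p = 0.00589, or 9.74 without WT GMP replicate 4) and was under 1 CPM in LSKs of both genotypes. Of the 4 epithelial markers tested in GMPs, 1 thus rose and 3 fell, and of 4 tested in LSKs none passed, although Krt18 and Cldn4 were lower at an unadjusted p under 0.05 and with the replicate block, and DESeq2 called Cldn4 and Cdh1 lower.

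Of 12 endothelial markers, Cdh5 (VE-cadherin), Plvap, Sox17 and Sox18 were under 1 CPM in every library. Others were present, among them Tie1 (64.8 CPM in WT and 65.2 in UREΔ LSKs, 17.1 and 14.1 in GMPs), Emcn (41.9 and 24.1 CPM in LSKs) and Esam (42.9 and 35.7 CPM in LSKs). The summed level was 252 to 433 CPM in UREΔ GMPs against 144 to 246 in WT GMPs, and 194 to 301 CPM in UREΔ LSKs against 223 to 382 in WT LSKs. Most of it in UREΔ GMPs was Pecam1, which blood cells express too and which rose by 0.98 (SE 0.19, adjusted p = 0.0126, edgeR), from 155 to 308 CPM. No other endothelial marker passed by edgeR among 6 tested in GMPs, where Emcn and Esam were lower at an unadjusted p under 0.05 and DESeq2 called Emcn and Plvap lower. None of 8 passed in LSKs, where 4 were lower at an unadjusted p under 0.05 and DESeq2 called Kdr lower and Sox18 higher. With the block, Emcn in GMPs and Pecam1 in LSKs were called lower. Of 12 markers of bone marrow stroma and pericytes, 9 were under 1 CPM in every group, Cspg4 at 0. Their sum was 32.0 to 241 CPM in UREΔ LSKs against 13.7 to 77.4 in WT LSKs, and 20.3 to 176 CPM in UREΔ GMPs against 9.58 to 88.4 in WT GMPs, and it was higher in replicates 1 and 4 than in 2 and 3 of every group. Most of it was Pdgfrb, which did not pass, but did with the replicate block, at 1.66 (SE 0.27, adjusted p = 0.00687) in LSKs and 1.48 (SE 0.29, adjusted p = 0.0114) in GMPs. Col1a2, a collagen chain, rose in GMPs by 4.29 (SE 0.70, adjusted p = 0.00579), from 0.602 to 11.7 CPM (4.94 without WT replicate 4), while Col1a1 stayed under 1 CPM. In LSKs Col1a2 did not pass (3.10, adjusted p = 0.0576), but did with the block (3.32, adjusted p = 0.00385) and by DESeq2. Dsc2 in UREΔ GMPs was likewise higher in replicates 1 and 4. Per the study's methods, cells were enriched on c-Kit and gated as lineage-negative and c-Kit-positive. The part of stromal cells in these values was not tested.

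Markers of other blood cells also differed between the same groups. The summed level of 10 markers of mature neutrophils was 227 to 1012 CPM in UREΔ GMPs against 68.0 to 172 in WT GMPs, and 178 to 362 CPM in UREΔ LSKs against 37.9 to 181 in WT LSKs. Ngp, a neutrophil granule protein, rose by 2.95 in GMPs (SE 0.35, adjusted p = 0.00126, edgeR) and by 2.37 in LSKs (SE 0.41, adjusted p = 0.00838), and these calls held without any 1 library. It was the only edgeR call of 7 tested in LSKs, but with the replicate block S100a8, S100a9 and Camp were called higher as well in both cell types (Camp at 1.93, adjusted p = 0.00205, in LSKs and 2.89, adjusted p = 0.000262, in GMPs), and DESeq2 called Camp in both and S100a8 in GMPs. Of 8 tested in GMPs, Retnlg rose as well, to 1.01 CPM, and Mmp8 fell by 3.04 (−3.97 without UREΔ replicate 2). The Retnlg call was lost without WT GMP replicate 2 (3.83, adjusted p = 0.0540), and its log2 fold change of 3.74 was 4.82 without WT GMP replicate 3. The sum of 9 markers of basophils and mast cells was 133 to 267 CPM in UREΔ LSKs against 72.7 to 155 in WT LSKs, and 863 to 2380 CPM in UREΔ GMPs against 714 to 1268 in WT GMPs. Of 7 tested in LSKs, the granule proteases Mcpt8 and Cpa3 rose by edgeR, by 2.11 and 1.89. There DESeq2 also called Cma1 (0.897 CPM in WT, 18.2 in UREΔ) and Tpsb2 (0.983 and 21.6 CPM) higher and Ms4a2 lower. The UREΔ LSK libraries were uneven, from 0.928 to 45.2 CPM for Cma1, which overlapped WT, and from 2.06 to 44.9 CPM for Tpsb2. Neither Cma1 nor Tpsb2 passed by edgeR (adjusted p = 0.0810 and 0.0951). Of 6 tested in GMPs, Mcpt8 rose by 1.48, while Prss34 fell by 2.42 and Ms4a2 by 2.92. Except for that of Prss34, these edgeR calls were lost in 3 to 6 of 8 fits without 1 library. The log2 fold changes in such fits ran from 1.81 to 2.52 for Mcpt8 and from 1.55 to 2.27 for Cpa3 in LSKs. In GMPs they ran from 1.09 to 1.66 for Mcpt8 and from −3.52 to −2.56 for Ms4a2. Itga2b, an integrin of platelets, was the only call of 9 megakaryocyte markers in LSKs, from 36.6 to 137 CPM, and was lost in 6 of 8 such fits (1.49 to 2.18). Gp1ba and Treml1 were also higher there at an unadjusted p under 0.05. The UREΔ LSK libraries were uneven in these markers, with Ppbp at 0.078 to 355 CPM, against 1.53 to 3.71 in WT LSKs, and Pf4 at 2.55 to 76.6 CPM, against 8.68 to 16.1. The erythroid sum was 2213 to 2645 CPM in UREΔ LSKs against 1178 to 1878 in WT LSKs. Most of it was Car2, with means of 2303 and 1382 CPM, which did not pass by edgeR (adjusted p = 0.0617). Of 11 erythroid markers tested in LSKs (median log2 fold change 0.48), Hbb-bt fell by edgeR, while DESeq2 also called Car1 lower and Car2, Hba-a1 and Hba-a2 higher, and the block Car1 lower and Car2 higher. Cd4 and Thy1 fell in LSKs and Nkg7 rose in GMPs among T and NK cell markers, and Cd79b fell in both cell types, Sdc1 in LSKs and Ighm in GMPs among those of B and plasma cells. Among markers of the sorted compartments, Cd34 and Flt3 fell in both, Fcgr2b and Prtn3 in LSKs and Ms4a3 in GMPs, while Elane rose in LSKs and Fcgr3 in GMPs. The replicate block added many calls here. In GMPs, Mpo, Elane, Ctsg, Cebpe and Gfi1 were then called higher and Hoxa9, Meis1, Procr and Fcgr2b lower, and in LSKs Ctsg higher and Meis1 and Ms4a3 lower. Of these, DESeq2 also called Mpo and Elane higher and Hoxa9 and Procr lower in GMPs, and Ctsg higher and Meis1 lower in LSKs. The lineage stain of the sort included antigens of T, B, erythroid and granulocytic cells. The part of these cells in the values of the 9 genes was not tested.

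**Figure D4:**
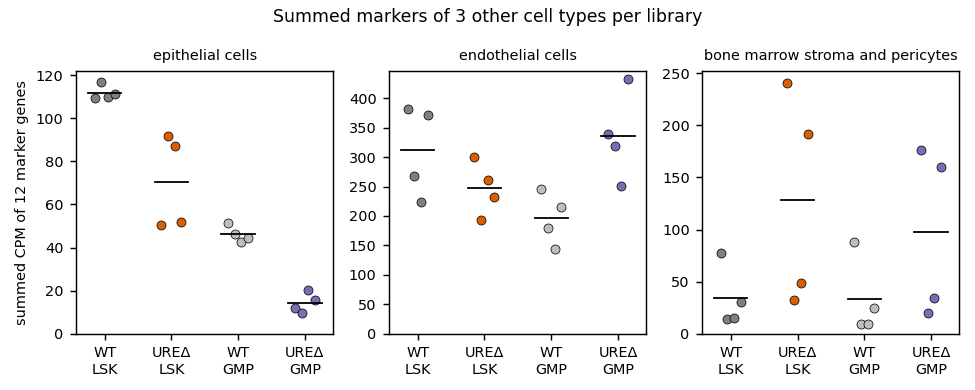
Summed CPM of 12 markers each of epithelial cells, endothelial cells, and bone marrow stroma with pericytes (vertical axes from 0), by group; each point is 1 library, in the order of replicates 1 to 4, and lines are means. The epithelial sum is lowest in UREΔ GMPs (9.51 to 20.2 CPM), and the stromal sum is highest in replicates 1 and 4 of UREΔ.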

How the data were processed

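The authors quantified unstranded low-input libraries (at most 10 ng of RNA, no molecular identifiers) with salmon on GRCm38, summed transcripts to genes and deposited estimated counts, rounded to whole numbers. Genes were matched to GENCODE M21. Counts were fitted here with edgeR 4.0.16 (limma 3.58.1, R 4.3.3; TMM, filterByExpr, glmQLFit and glmQLFTest, Benjamini-Hochberg), separately for LSKs, GMPs and WT, with an interaction over all 16 libraries. Calls needed an adjusted p below 0.05 with a change of over 1.5-fold (interaction: adjusted p alone). Of the 9 genes, 7 passed the low-count filter in LSKs, 9 in GMPs and 7 in WT. Standard errors derive from the log2 fold change and F.

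Genes and lists were chosen with earlier results of these data known. Named genes are the 9, Spi1, the 3 most changed called genes of each pathway list and cell type, markers, and the 2 most correlated genes (prior count 2, mean of at least 3 log2 CPM). Genes that edgeR called only with the replicate block were named after their values were seen, as were some list genes without a call. Same-numbered libraries deviated together (r from 0.24 to 0.55 in GMPs, 0.28 to 0.59 in LSKs, 0.42 to 0.71 in WT), so the number was treated as pairing the libraries in the alternative with a block, although UREΔ replicate 4 went more with WT replicate 1 (r = 0.39 in GMPs, 0.40 in LSKs) than with WT replicate 4 (0.24 and 0.28). The labels do not say what a number stands for; per the paper's methods, mice were littermates, and work over several days included every condition each day. No 2 replicates were near-identical (chi-square per degree of freedom at least 29.6). The fits were tested on simulated data. Alternatives were DESeq2 1.42.0 (without the low-count filter), RLE size factors, other filters, a joint fit, the block, a Y-linked covariate, replicate subsets and leaving out each library. The result of 1 gene is not reported here. Intervals and floors cover counting error only.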

Additional observations from a re-analysis of the deposited data

Results flagged for a closer look

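In a check of 44 groups of 4 libraries for a single distant one, 3 stood out, where chance alone gives about 1 in 20. Spint2 was at 132 CPM in UREΔ LSK replicate 2, above 106 to 109.7 in the other replicates. Epha7 was at 1.16 CPM in the same library, against 0.13 or less in the others. Heph was at 0.12 CPM in WT LSK replicate 4 and at 0 in the other WT LSK libraries, a difference of 3 reads. The difference of the genotype effects, GMP minus LSK, is listed for the gap between the cell types, as a description with no test, at 2.61 (Perp), 1.35 (Spint2), 4.96 (Shroom2), 6.09 (Epha7), 4.62 (Tinagl1) and 5.42 (Ednra) on the log2 scale, beside 1.39 for Sdc2, 5.10 (SE 1.84) for Dsc2 and 3.82 (SE 2.39) for Heph. These values are among those that chose the genes and are no independent evidence. Spi1 itself was lowered less in GMPs than in LSKs, by 2.64 (edgeR interaction, adjusted p = 0.0218), and it was 2.47 without WT LSK replicate 4 (adjusted p = 0.0503) and 2.30 within replicates 2 and 3 (adjusted p = 0.681).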

How the results depend on the processing

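Over every alternative tried, the fitted genotype differences kept their sign (Shroom2 and Heph were not fitted in LSKs) except for Epha7 in GMPs, at −0.10 within replicates 1 and 4 and from −0.013 (without UREΔ replicate 2) to 0.34 when 1 library was left out. In WT, the GMP against LSK value of Sdc2 turned to 0.22, and that of Ednra to 0.27, within replicates 2 and 3, and that of Ednra ran from −0.56 to 0.21 (without WT LSK replicate 1) when 1 library was left out. The cause was not tested. Counts over all genes moved more. DESeq2 gave 677 higher and 954 lower genes in LSKs (edgeR 360 and 570), 1112 and 883 in GMPs (646 and 502), and 416 and 258 for the interaction (138 and 56). DESeq2 was fitted without the low-count filter, and edgeR fitted to the same genes gave 340 and 555, 685 and 532, and 103 and 36. By its default setting DESeq2 leaves genes of low mean count out of the p adjustment, so p was not adjusted over the same genes. With the replicate block they were 581 higher and 852 lower in LSKs, 1317 and 943 in GMPs, and 632 and 415 for the interaction. In WT GMPs against LSKs they were 2335 higher and 3706 lower (1702 and 2335 without the block). The block took no call from a listed gene. Among the named pathway genes, the Y-linked covariate took the calls of Dsg2, Pkp3 and Slc40a1 in GMPs and Efna4 in LSKs. The fit without a low-count filter took those of Pkp3 and Efna4. With a filter of 1 CPM in 4 libraries, Dsg2 and Efna5 were not tested in GMPs. For cell markers, only the block, DESeq2 and fits without 1 library are given, and not for every list. The covariate, the filters and the replicate subsets are not given for them. No fit without 1 library is given for markers of monocytes and dendritic cells, erythroid cells, T, NK, B and plasma cells or the sorted compartments. Within replicates 2 and 3, with 2 libraries a group, the calls of Dsg2, Efna4 and Efna5 in LSKs were lost (adjusted p from 0.0632 to 0.442), as were those of Spi1, Dsg2, Dsp, Efna5, Ephb2, Gpc1, Gpc3, Met, Pkp3 and Slc40a1 in GMPs (0.0713 to 0.347). Within replicates 1 and 4 those of Dsg2 and Efna4 in LSKs (0.116 and 0.162) and of Dsg2, Gpc3 and Pkp3 in GMPs (0.0600 to 0.244) were lost. All of these kept their sign. With the Y-linked covariate the counts were 194 and 327 in LSKs and 341 and 313 in GMPs. Leaving out 1 library at a time gave 206 to 353 higher and 359 to 608 lower genes in LSKs, 395 to 638 and 320 to 538 in GMPs, and 66 to 188 and 18 to 95 for the interaction. Depth limits what can be said of Shroom2 and Heph in LSKs and of Dsc2 in WT.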
